A study of Mus musculus with 12 samples.

Results

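The genes described here are 47 genes of the BMP and TGF-beta pathways in mouse bone-derived mesenchymal stem cells (MSCs), taken from a list of named ligands, receptors, Smads, antagonists and targets. They comprised 14 ligands, 12 receptors and co-receptors, 8 Smads, 5 extracellular antagonists, 4 Id genes and 4 latent TGF-beta binding proteins, out of 21938 protein-coding genes of the GENCODE M21 annotation of mm10. For each gene, all peaks of H3K27ac and H3K4me3 were read in the gene body and 20000 bp on each side, at each oxygen level. The MSCs came from the hind limbs of wild-type male C57BL/6N mice aged 3 to 5 months and were sorted on day 12 as CD45-, TER-119-, CD140a+ and Sca-1+ cells. All of them were in 2% O2 up to the sort, and the sorted cells were then kept for a week in hypoxia (2% O2, 5% CO2) or in normoxia (21% O2, 5% CO2), so that normoxia was a shift after the sort. ChIP-seq of H3K27ac, H3K4me3 and input chromatin gave 12 libraries, 2 for each of 6 groups, and the authors combined both libraries of a mark and oxygen level into 1 peak list. Each comparison below therefore sets 1 list against 1 list, with no replicate spread, no test and no read depth, and a mark that fewer cells carried cannot be told apart from less of it per cell.

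BMPs, TGF-betas and activins are secreted dimers that bind paired type I and type II serine/threonine kinase receptors on the cell surface. Activated type I receptors phosphorylate Smad1, Smad5 and Smad9 (BMP branch) or Smad2 and Smad3 (TGF-beta and activin branch), which join Smad4 and enter the nucleus, while Smad6 and Smad7 restrain the signal. In skeletal stem cells, BMP ligands are known for driving osteoblast and chondrocyte differentiation. TGF-beta is stored in bone matrix in latent complexes held by some of the latent TGF-beta binding proteins. H3K27ac marks active promoters and enhancers, and H3K4me3 marks promoters, including CpG-rich promoters of genes that are silent.

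The lists held 15203 H3K27ac peaks in hypoxia and 14832 in normoxia, and 14606 and 14603 H3K4me3 peaks. Both genes that encode the sorted surface proteins had H3K27ac within 1000 bp of a start at both oxygen levels, Pdgfra together with H3K4me3 and Ly6a without it. Of 8 mesenchymal genes, 6 had both marks at a start (Prrx1, Twist1, Col1a1, Col1a2, Thy1 and Pdgfrb) and 2 had H3K4me3 alone (Twist2 and Nt5e). None of 8 haematopoietic genes, 5 endothelial genes or 3 neuronal genes had H3K27ac at a start at either oxygen level, and Klf1, Kdr and Syn1 had H3K4me3 there.

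Most of the pathway carried both marks at its transcription starts, and most BMP and GDF ligands were among the exceptions. In hypoxia, 30 of the 47 genes (63.8%) had H3K4me3 and H3K27ac within 1000 bp of a start, against 36.5% of all protein-coding genes. Another 15 (31.9%) had H3K4me3 without H3K27ac, against 22.5% of all genes, and 2, Bmp5 and Gdf5, had neither mark, against 39.9%. No pathway gene had H3K27ac alone. In normoxia the count with both marks was 31, against 35.9% of all genes, the added gene being Ltbp2. H3K4me3 was at a start of the same 45 genes (95.7%) at both oxygen levels, against 58.9% of all genes. Among genes with H3K4me3 at a start, 30 of 45 also had H3K27ac there in hypoxia, against 8001 of 12928 over all genes. The share with both marks is therefore to be read beside that of H3K4me3.

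**Figure D1:**
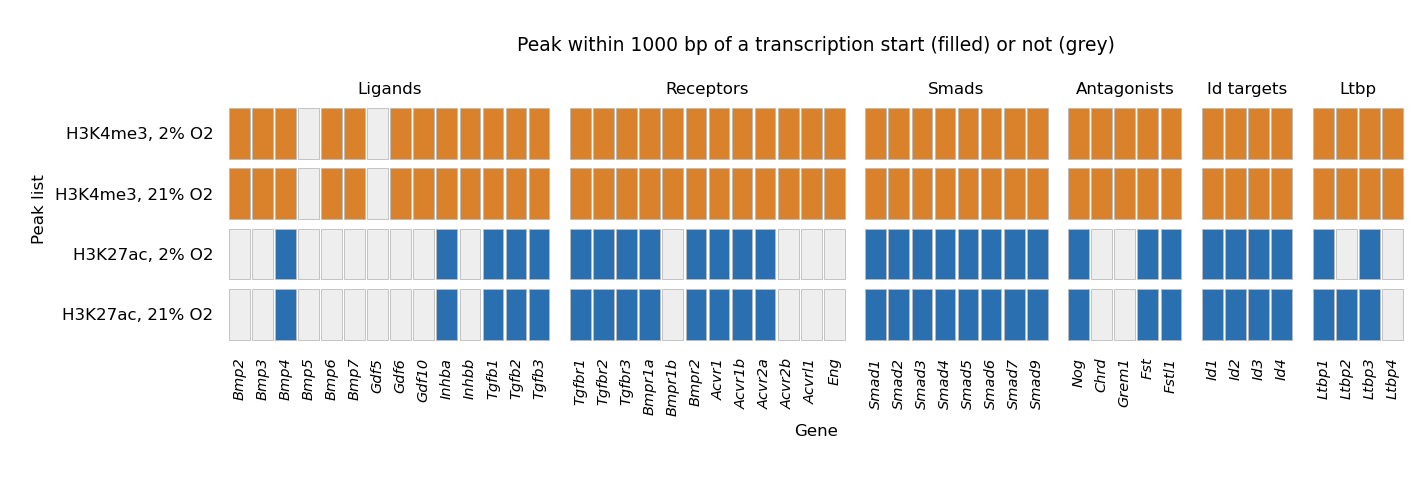
Peaks of H3K4me3 (orange) and H3K27ac (blue) within 1000 bp of any annotated start of the 47 genes (columns, grouped by role) in each of the 4 peak lists (rows), with grey for no peak. All 8 Smads and all 4 Id genes have both marks, most BMP ligands lack H3K27ac, and Ltbp2 is the gene whose tile differs between 2% and 21% O2.

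Among the 14 ligands, 5 had both marks at a start (Bmp4, Inhba, Tgfb1, Tgfb2 and Tgfb3), 7 had H3K4me3 without H3K27ac (Bmp2, Bmp3, Bmp6, Bmp7, Gdf6, Gdf10 and Inhbb) and 2 had neither. Divided by family, a division made after the values were seen, 1 of 9 BMP and GDF genes and 4 of 5 TGF-beta and activin genes had H3K27ac at a start, and these counts were the same at both oxygen levels. Bmp4, an osteogenic BMP, had a 7000 bp peak of each mark over its start (chr14:46384501-46391500), and its H3K27ac score was 86 in hypoxia and 81 in normoxia. Bmp2, a BMP used to induce bone formation, had a 4500 bp H3K4me3 peak over its start and no H3K27ac in its window. The H3K27ac peak nearest to the Bmp2 start in hypoxia lay 965159 bp away, the longest such distance among the 47 genes. It was 181394 bp for Bmp6 and 160414 bp for Gdf10. Bmp3, which opposes other BMPs in bone, had the narrowest H3K4me3 start peak of the ligands at 2000 bp. Bmp7 had a start peak of 2500 bp, and Gdf6, which patterns joints and skull, had 1 of 5000 bp and another of 2000 bp over an exon.

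Bmp5, a gene of 125 kb, was the only gene of the list with no peak of either mark in its window, whereas 28.2% of all genes had none. Gdf5, a ligand of joint formation, had no peak at its own start, and the peaks in its window stood at the starts of its neighbours Uqcc1 and Cep250. Tgfb3 had 24.0 kb in its window, the most of the 14, although of its 4 peaks the 5000 bp peak over the start was nearest to Tgfb3 and the other 3 to its neighbour Ift43. Tgfb1 had 17.5 kb in 4 peaks, of which the 4500 bp peak over the start was nearest to Tgfb1 and the other 3 to B9d2 or Ccdc97. Tgfb2 had 16.5 kb and Inhba, the activin A subunit, 16 kb, all in peaks nearest to these genes themselves, with an 11000 bp peak of both marks over the Inhba start (chr13:16011001-16022000). Inhbb, the activin B subunit, had a 4500 bp H3K4me3 peak and its nearest H3K27ac 80253 bp from the start.

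Among the 12 receptors, 8 had both marks at a start, at both oxygen levels. These were Tgfbr1 and Tgfbr2, the TGF-beta kinases, Tgfbr3 (betaglycan, the TGF-beta co-receptor), the BMP receptors Bmpr1a and Bmpr2, and the activin receptor genes Acvr1, Acvr1b and Acvr2a. Bmpr1b, Acvr2b, Acvrl1 and Eng had H3K4me3 without H3K27ac. The related type I BMP receptors thus differed in these cells. Bmpr1a had 45.5 kb of H3K27ac in 4 peaks, including a 4500 bp peak over its start with the highest score at both oxygen levels, whereas Bmpr1b, a gene of 332 kb, had a 2500 bp H3K4me3 peak, no H3K27ac in its window and the nearest H3K27ac 98576 bp from a start. The type II activin receptors differed in the same way: Acvr2a had a 5000 bp peak of both marks, and Acvr2b had 2 adjoining H3K4me3 peaks of 2000 and 1500 bp and the nearest H3K27ac 59118 bp from a start.

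Tgfbr3 had the most H3K27ac of the 47 genes, 159 kb or 71.5% of its window, at both oxygen levels. It lay in 5 peaks, the widest being 98000 bp (chr5:107146501-107244500) across exons and introns of the gene, with a score of 131 in both lists. Acvr1, which encodes a type I receptor of the BMP branch, followed among the receptors with 63.5 kb in 6 peaks. Its start peak (chr2:58564001-58569000) also covered the start of Upp2. Acvr1b and Acvrl1 lie side by side and were the only 2 genes of the list whose windows overlapped.

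Acvrl1 encodes ALK1, a type I receptor best known in endothelial cells, where Eng (endoglin) is its co-receptor. Acvrl1 had H3K4me3 over its start in both H3K4me3 lists. In normoxia its window held no H3K27ac, and in hypoxia it held 1 H3K27ac peak of 8500 bp (chr15:101139001-101147500, score 85). That peak covered exons of the 3' part of the gene and ran past its end, from 10479 to 18979 bp downstream of the outermost start and 4868 bp from the nearest annotated start, and it held no H3K4me3. Eng also lacked H3K27ac at its start, but a 5000 bp intronic peak (chr2:32652501-32657500) was called at both oxygen levels, with a score of 122 in hypoxia and 1000 in normoxia. The endothelial markers Pecam1, Cdh5, Kdr, Tek and Emcn had no H3K27ac at a start in either list, and Kdr had H3K4me3 there. These markers were read at starts alone, where Acvrl1 and Eng also lacked H3K27ac. Whether endothelial cells contributed to the peaks away from the starts was not tested.

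All 8 Smad genes had both marks at a start at both oxygen levels, and none had a peak that differed. The Smads fell into those with H3K27ac at the start alone and those with long acetylated stretches. Smad1, Smad2 and Smad4 had 3.5 kb each and Smad5 3 kb, the least of the Smads, each in 1 start peak. Smad9 had a start peak of 3000 bp, and its other peaks stood at the starts of Alg5 and Exosc8 and of Rfxap. The inhibitory Smads were the opposite: Smad6 had 84 kb of H3K27ac, 77.1% of its window, in a start peak of 7500 bp and a 76500 bp peak (chr9:63939501-64016000), and Smad7 had 41 kb with a 14000 bp peak of both marks over its starts, the widest H3K4me3 peak in the windows of the 47 genes. Smad3 had 58 kb, of which a 41000 bp peak reached from its 3' exons into the neighbouring gene Aagab. All 4 H3K27ac peaks at Smad6 and Smad7 had a score of 1000 in both lists. In each of these genes the start peak and the other peak adjoined without a gap at the border of the H3K4me3 peak.

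Of the 5 antagonists, Nog (noggin), Fst (follistatin, which binds activin) and Fstl1 (a secreted follistatin-like protein) had both marks at a start, and Chrd (chordin) and Grem1 (gremlin) had H3K4me3 alone. Fstl1 had the most H3K27ac, 51 kb in 3 peaks that covered 51.2% of its window, and Grem1 had none, the nearest peak being 88355 bp from its start. The single H3K27ac peak in the Chrd window stood at the shared start of Clcn2 and Polr2h, 14127 bp from Chrd. The start peak of Nog, 3500 bp wide, had a score of 132 in hypoxia and 60 in normoxia.

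The 4 Id genes, direct targets of BMP-activated Smads that encode inhibitors of basic helix-loop-helix factors, had both marks at their starts in both oxygen levels. Id3 had the most H3K27ac, 23.0 kb in 5 peaks of which 4 lay upstream of the gene, and Id4 had the least, 3 kb in 1 peak. The Id3 peaks within chr4:136131001-136149000 adjoined without a gap and met at borders of H3K4me3 peaks, so they can be pieces of 1 stretch. Id2 had a peak of 8000 bp over its starts and Id1 1 of 5500 bp. The Id1 peak directly adjoined narrower H3K27ac peaks without H3K4me3 on both sides, which likewise met it at the H3K4me3 borders.

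The latent TGF-beta binding proteins are matrix proteins, of which some, but not all, hold secreted TGF-beta. The Ltbp2 window held 1 normoxia-only H3K27ac peak, as did 1.15% of all gene windows, and the Ltbp4 window 1 hypoxia-only peak, nearest to Gm20479, as did 4.70%. In the Ltbp2 window, 24.8 kb of H3K27ac in hypoxia and 33.8 kb in normoxia were called. The difference was a normoxia-only peak of 9000 bp (chr12:84877501-84886500, score 62), intergenic and upstream, which began 969 bp from the nearest Ltbp2 start and directly beside the 3500 bp H3K4me3 peak of that start (chr12:84874001-84877500), without H3K4me3 of its own. In the Ltbp4 window, a hypoxia-only peak of 1000 bp (chr7:27357001-27358000, score 53) lay at the outer edge of the window, partly outside it, so that the window held 5.69 kb of H3K27ac in hypoxia and 5 kb in normoxia. This peak stood at the start of Gm20479 and over an exon of Sptbn4, held H3K4me3, and adjoined a shared peak at the start of Shkbp1 (chr7:27355001-27357000) whose H3K27ac score was 89 in hypoxia and 54 in normoxia. At the Ltbp4 starts themselves, H3K4me3 was present without H3K27ac. Ltbp1, with 34 kb in 4 peaks, had both marks at an internal start and H3K4me3 alone at its outermost start, and Ltbp3 had both marks at its start in a 3500 bp peak.

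**Figure D2:**
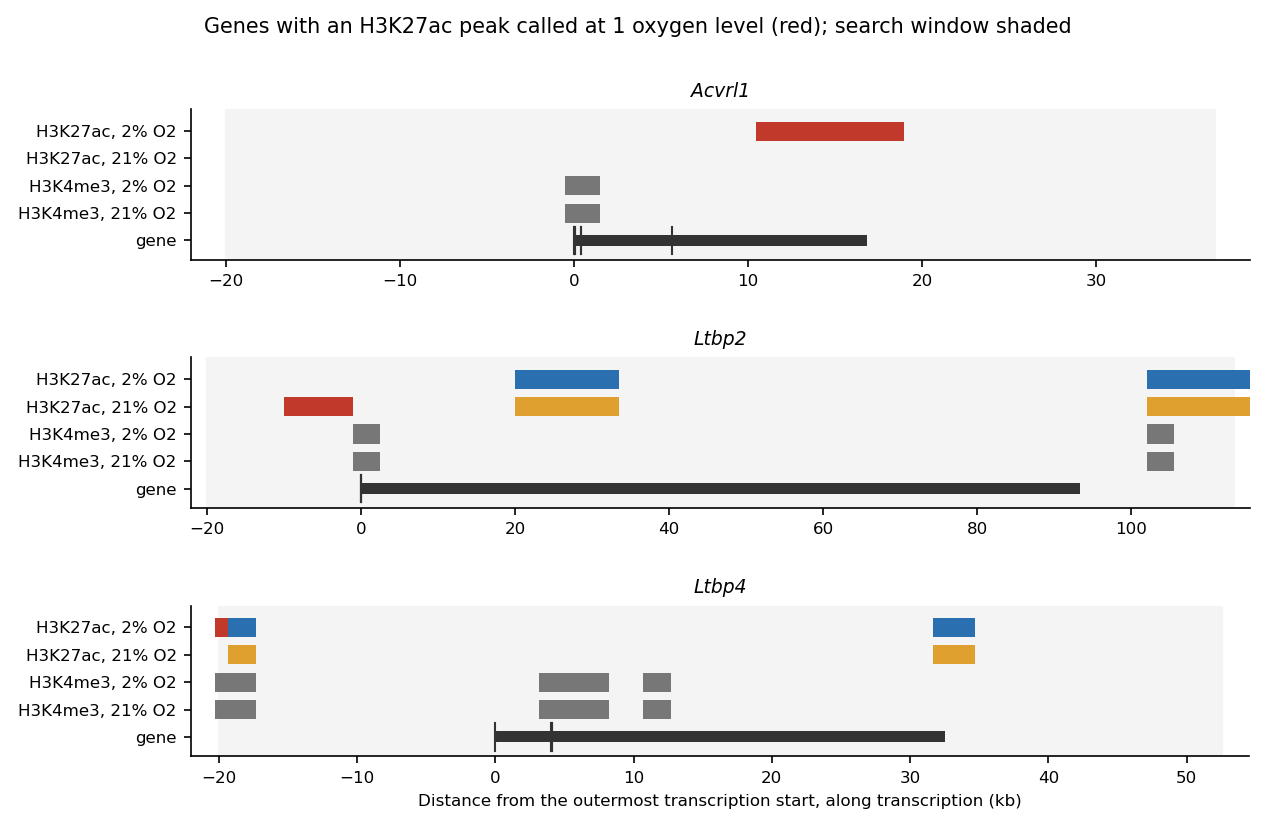
Peaks around Acvrl1, Ltbp2 and Ltbp4 against distance from the outermost start in kb (negative values upstream), with the gene body as a dark bar, annotated starts as ticks and the search window shaded. Red bars are the H3K27ac peaks called at 1 oxygen level: 8500 bp over the 3' part of Acvrl1 and 1000 bp at the edge of the Ltbp4 window in hypoxia, and 9000 bp upstream of Ltbp2 in normoxia.

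In all, the windows of the 47 genes held 89 distinct H3K27ac peaks, of which 86 were called at both oxygen levels, 2 in hypoxia alone and 1 in normoxia alone. Thus 2 genes (4.26%) had a hypoxia-only H3K27ac peak, against 4.70% of all protein-coding genes, and 1 gene (2.13%) had a normoxia-only peak, against 1.15%. With 47 genes each gene counts for 2.13%, so neither share stands apart from that over all genes. All 73 distinct H3K4me3 peaks were called at both oxygen levels, so that 0 of 47 genes had a differing H3K4me3 peak, against 0.0638% of all genes. Only 6 peaks of the whole hypoxia H3K4me3 list and 3 of the normoxia list were absent from the other. This 0 therefore says little about the pathway. Peaks called at both oxygen levels had the same borders in both lists. The bases under H3K27ac were therefore bound to be the same for the 44 genes without a differing peak, and differed at Acvrl1, Ltbp2 and Ltbp4. These counts rest on few peaks: the Ltbp4 peak dropped out when a peak had to be nearest to a start of the gene itself, and the Ltbp2 peak when the lowest-scoring 25% of the list was left out.

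The pathway genes were more often near H3K27ac, and had more of it, than genes at large. An H3K27ac peak lay in the window of 36 genes (76.6%) in hypoxia, against 55.0% of all genes, and of 35 (74.5%) in normoxia, against 54.6%. The median gene of the list had 7 kb of H3K27ac in its window in hypoxia and 5 kb in normoxia, against 2.5 kb over all genes at either level. This is not a shift across the list, since 44 of the 47 genes had the same bases at both levels. The median moved through Acvrl1 (8.5 kb in hypoxia, 0 kb in normoxia) and Ltbp4 (5.69 and 5 kb), whereas Ltbp2 rose from 24.8 to 33.8 kb. The windows of the list were also longer, with a median of 76.1 kb against 57.4 kb, and the median share of the window under H3K27ac was 8.39% against 2.56%. Over 40 kb, a limit set after the values were seen, were found at 7 of the 47 genes (14.9%) and at 1.94% of all genes. They were Tgfbr3, Smad6, Acvr1, Smad3, Fstl1, Bmpr1a and Smad7. Counting only peaks nearest to a start of the gene itself, 6 genes were over 40 kb, Smad3 falling to 17 kb, against 1.20% of all genes, and the median was 3.5 kb against 0 kb over all genes. By contrast, 11 genes had no H3K27ac in the window in hypoxia: Bmp2, Bmp3, Bmp5, Bmp6, Bmp7, Gdf6, Gdf10, Inhbb, Bmpr1b, Acvr2b and Grem1. Of the 89 peaks, 64 were nearest to a start of the gene whose window held them and 25 to another gene, 45 overlapped H3K4me3 and 10 were intergenic.

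**Figure D3:**
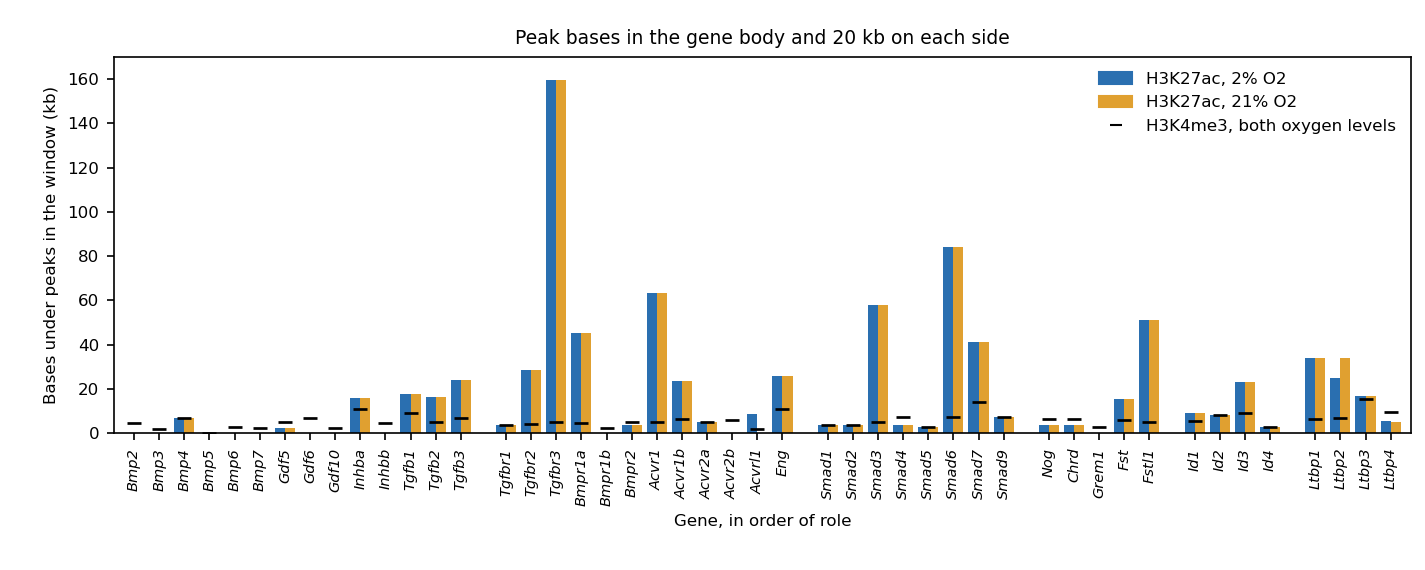
Kilobases under H3K27ac peaks in the window of each of the 47 genes at 2% O2 (blue) and 21% O2 (yellow), with black dashes for H3K4me3, which was the same at both levels. Tgfbr3 (159 kb) and Smad6 (84 kb) stand highest, 11 genes have no blue bar, and blue and yellow bars are unequal at Acvrl1, Ltbp2 and Ltbp4.

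H3K4me3 at the starts was wider where H3K27ac was also present. The widest H3K4me3 start peak had a median of 4750 bp in the 30 genes with both marks in hypoxia, from 3000 to 14000 bp, against 3000 bp over the 8001 protein-coding genes of that class. In the 15 genes with H3K4me3 alone the median was 2500 bp, from 2000 to 5000 bp, which equals the median of 2500 bp over 4927 genes. Smad7, Inhba, Id2, Smad6 and Bmp4 had the widest, at 14000, 11000, 8000, 7500 and 7000 bp. For the 15 genes, the median distance from a start to the nearest H3K27ac peak was 72372 bp in hypoxia, against 48156 bp over all genes of the class. Of these 15, 10 had no H3K27ac anywhere in the window, Chrd had it at a neighbouring gene's start, and Acvrl1, Eng, Ltbp2 and Ltbp4 had a peak of their own away from the start.

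The base composition around the starts followed the marks. The observed to expected CpG ratio, which compares the CG dinucleotides present with the number that the C and G content would give, was computed in 1001 bp centred on each gene's outermost start. Classed by the marks at that start, its median was 0.833 in 29 genes with both marks (0.779 over all genes of the class), 0.740 in 15 with H3K4me3 alone (0.679) and 0.320 in 3 with neither (0.196). The third of these was Ltbp4, whose outermost start lacks H3K4me3 while its inner starts have it. The ranges overlapped, from 0.172 at Ltbp3 to 1.15 at Acvr2a in the first class and from 0.396 at Eng to 1.08 at Bmp2 in the second. Bmp2, Bmp6, Bmp7 and Bmpr1b thus had H3K4me3 and no H3K27ac at starts that were CpG-rich in these 1001 bp. Their ratios were 1.08, 0.804, 0.821 and 0.831. In the 300 bp RefSeq promoters used below, Bmpr1b had a ratio of only 0.286 with 5 CG dinucleotides, and Bmp6 had 0.751 with 27. Bmp2 and Bmp7 were not matched to such a promoter.

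**Figure D4:**
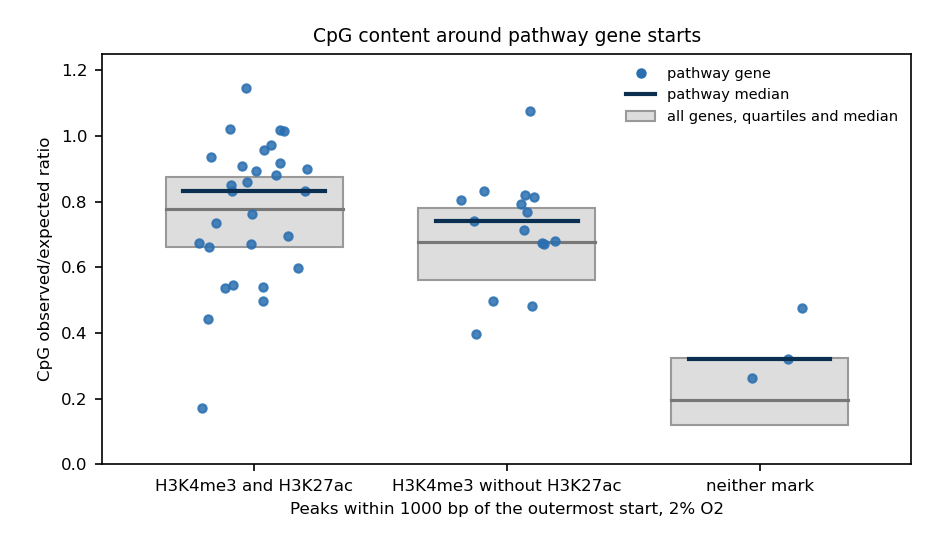
CpG observed to expected ratio in 1001 bp around the outermost start of each of the 47 genes (points, with the median as a dark line), by the marks at that start in hypoxia, over grey boxes of the quartiles and median of all protein-coding genes. The medians of the list are 0.833, 0.740 and 0.320 from left to right, each above that of all genes of its class.

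Promoter sequences of 4 genes show these classes as letters. Ltbp2 is shown because its start lies within 1000 bp of a differing H3K27ac peak, and the others stand for the classes among the genes matched to the RefSeq promoter table of GRCm38.p6. Smad3 (both marks) had the lower of the middle pair of CpG ratios of its class, Inhbb (H3K4me3 alone) the middle ratio of its class with Ltbp2 set aside, and Bmp5 was the only matched gene with neither mark. Each sequence runs 5' to 3' on the gene's strand from 250 bp before the RefSeq start to 50 bp after it, with CG dinucleotides in capitals. They lie at chr12:84876442-84876741 (Ltbp2, minus strand), chr9:63757945-63758244 (Smad3, minus strand), chr1:119422199-119422498 (Inhbb, minus strand) and chr9:75775115-75775414 (Bmp5, plus strand).
Ltbp2: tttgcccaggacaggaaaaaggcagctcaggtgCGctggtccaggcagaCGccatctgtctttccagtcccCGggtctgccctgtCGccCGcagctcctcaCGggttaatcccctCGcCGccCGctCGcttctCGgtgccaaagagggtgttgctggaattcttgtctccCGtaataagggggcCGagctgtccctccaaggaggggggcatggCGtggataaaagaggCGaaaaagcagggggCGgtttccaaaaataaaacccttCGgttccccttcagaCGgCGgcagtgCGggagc
Smad3: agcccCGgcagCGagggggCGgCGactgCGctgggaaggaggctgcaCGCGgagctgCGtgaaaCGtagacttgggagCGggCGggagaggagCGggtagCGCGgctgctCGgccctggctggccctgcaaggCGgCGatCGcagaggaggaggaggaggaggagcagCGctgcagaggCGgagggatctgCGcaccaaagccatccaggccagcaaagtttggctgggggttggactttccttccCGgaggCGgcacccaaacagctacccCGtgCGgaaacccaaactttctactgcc
Inhbb: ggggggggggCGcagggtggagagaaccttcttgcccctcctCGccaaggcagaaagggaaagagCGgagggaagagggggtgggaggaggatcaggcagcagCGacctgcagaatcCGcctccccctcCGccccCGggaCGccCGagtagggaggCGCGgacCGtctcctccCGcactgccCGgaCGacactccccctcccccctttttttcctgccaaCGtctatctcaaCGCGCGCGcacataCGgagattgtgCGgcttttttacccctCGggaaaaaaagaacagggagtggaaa
Bmp5: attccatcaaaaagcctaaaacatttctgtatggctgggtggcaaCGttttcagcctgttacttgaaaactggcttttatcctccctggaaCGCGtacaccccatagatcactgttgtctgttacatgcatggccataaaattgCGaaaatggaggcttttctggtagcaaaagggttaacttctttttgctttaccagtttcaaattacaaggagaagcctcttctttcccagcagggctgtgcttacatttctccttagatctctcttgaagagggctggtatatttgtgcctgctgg

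The capitals count 20 CG dinucleotides in Ltbp2, 25 in Smad3, 23 in Inhbb and 4 in Bmp5, and the G and C content was 61.0%, 67.7%, 64.3% and 43.3%. The median over all promoters of the table was 14. Motifs linked to the pathway and to hypoxia were searched in these sequences on both strands: the GC-rich Smad element GGCGCC, the palindromic Smad element GTCTAGAC, the Smad box with flank CAGACA, and ACGTG, the core of the hypoxia response element. CAGACA occurred once in Bmp5 and none of the others occurred in the 4 sequences. Of 20150 promoters of the same length, 15.8% held GGCGCC, 0.228% GTCTAGAC, 18.4% CAGACA and 21.1% ACGTG. The table held promoters of 33 of the 47 genes, below the 80% needed for a check over the whole list, so that no motif share is given for the list.

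The peaks called at both oxygen levels were compared by the score in the peak lists, a whole number from 50 to 160 or exactly 1000. How the score was computed is not given in the sources used here, and it is not a measure of the amount of H3K27ac. The share of H3K27ac peaks at 1000 ranged between chromosomes (chromosome Y aside) from 0% to 42.2% in hypoxia and from 0% to 38.1% in normoxia. Scores are therefore compared here within a peak and not between genes. The alternatives that leave out the lowest-scoring 25% of a list are an exception, since they rank peaks over all chromosomes. Of the 86 shared H3K27ac peaks in the windows, 40 had a lower score in normoxia (46.5%), 37 an equal score, 25 of them at 1000, and 9 a higher score (10.5%). Over all 14614 shared H3K27ac peaks, 39.9% were lower, 43.6% equal and 16.6% higher, and the median difference was 0 in both sets. All 73 shared H3K4me3 peaks had the same score in both lists, as did all 14600 in the genome. A score that is equal at every shared peak cannot show whether H3K4me3 changed with oxygen.

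At the starts of the pathway genes, 33 shared H3K27ac peaks were found, of which 12 had a lower score in normoxia (36.4%), 19 an equal score and 2 a higher score (6.06%), against 37.2% lower and 7.86% higher over 7711 start peaks of all protein-coding genes. The start peaks of Smad3, Fstl1 and Id4 had a score of 1000 in hypoxia and of 103, 108 and 123 in normoxia. Nog went from 132 to 60, Acvr1b from 143 to 97, Ltbp3 from 131 to 99, Tgfb2 from 103 to 83 and Tgfb1 from 96 to 83. The 2 higher values were 126 and 133 at a peak beside the Tgfb3 start and 119 and 120 at Id1. Of the 33, 16 had 1000 at both levels, among them those of Tgfbr1, Tgfbr2, Bmpr1a, Bmpr2, Smad2, Smad4, Smad5, Smad6 and Smad7. Away from the starts of the 47 genes, the other 53 shared peaks in the windows comprised 28 with a lower score in normoxia (52.8%), 18 with an equal score and 7 with a higher score (13.2%). No genome set of the same kind was counted for these 53, some of which stand at starts of other genes. Over all shared H3K27ac peaks, 39.9% were lower and 16.6% higher. Of these 53, 39 were also away from the starts of all other protein-coding genes, with 20 lower (51.3%) and 7 higher (17.9%), against 42.8% lower and 26.4% higher over the 6903 such peaks in the genome. Among the lower were an intergenic peak 14997 bp upstream of Id3 (1000 in hypoxia and 114 in normoxia) and the peaks at the starts of Uqcc1 in the Gdf5 window (1000 and 115) and of Rfxap in the Smad9 window (1000 and 123). Among the higher were peaks within Acvr1 (94 and 1000), Eng (122 and 1000), Fst (111 and 1000) and Fstl1 (115 and 1000). At Fstl1 the start peak and the adjoining intronic peak therefore moved in opposite directions.

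**Figure D5:**
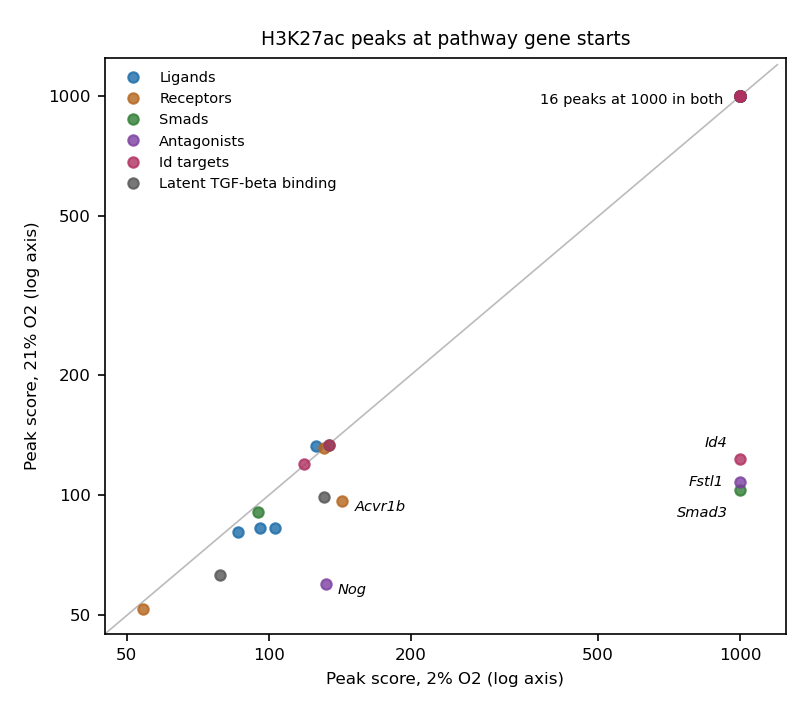
Score of each of the 33 H3K27ac peaks within 1000 bp of a pathway gene start at 2% O2 (horizontal) and 21% O2 (vertical), on log axes, coloured by role, with a grey line of equal scores. 16 peaks sit at 1000 on both axes, and Smad3, Fstl1 and Id4 sit at 1000 in hypoxia and between 103 and 123 in normoxia.

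A second list of 62 other pathway genes (further ligands, receptors, antagonists, intracellular regulators, targets and matrix proteins that bind the ligands) was read in the same way, 1 of them under its older symbol Hfe2. Of these, 30 had both marks at a start in hypoxia (48.4%, against 36.5% of all genes), 10 had H3K4me3 alone (16.1%, against 22.5%), 21 neither mark (33.9%, against 39.9%) and 1, Dcn (decorin), H3K27ac alone. All 12 intracellular regulators, such as Smurf1, Smurf2, Ski, Skil and Tgif1, had both marks, and 14 of 20 ligands had neither. A hypoxia-only H3K27ac peak lay in the window of 5 genes (8.06%, against 4.70% of all genes) and a normoxia-only peak in that of 2 (3.23%, against 1.15%), and no H3K4me3 peak differed. The hypoxia-only peaks were 14000 bp within Bmp1, the procollagen C-proteinase (chr14:70503001-70517000), 21500 bp within the fibrillin gene Fbn1 (chr2:125466001-125487500), 4500 bp upstream of Tgfbi (chr13:56598001-56602500), 2000 bp beginning 769 bp from the nearest start of Hspg2, which encodes perlecan (chr4:137466001-137468000), and 13000 bp in the Gdf1 window but nearest to Upf1 (chr8:70336501-70349500). The normoxia-only peaks were 2000 bp at the 3' side of Ccn2 (chr10:24597501-24599500) and 16000 bp in and beyond Thbs1 (chr2:118116501-118132500), both genes being known TGF-beta-responsive genes of the matrix. These 7 peaks had scores from 50 to 76, near the lowest score of 50 in the lists.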

How the data were processed

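H3K27ac and H3K4me3 were measured by ChIP-seq in cultured mouse MSCs. The authors mapped reads to mm10 with bowtie2 and removed duplicates with Picard MarkDuplicates. They called peaks jointly over hypoxia and normoxia (differential mode of chromstaR), with bins of 1000 bp moved in steps of 500 bp. Overlapping peaks of the 4 lists share their borders, also between the marks, with 0 partial overlaps. A stretch of H3K27ac can thus appear as adjoining peaks that meet at the border of an H3K4me3 peak. Peak counts and widths include such pieces. The 4 deposited files are peak lists without a header, each made from 2 libraries, and hold positions and a peak score whose definition is not given in the sources used here. They hold no read counts, so depth per library is unknown and no interval for counting error can be given. The input libraries were not analysed here.

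From these lists, peaks were intersected (at least 1 bp) with gene windows of the GENCODE M21 basic annotation and with 1000 bp on each side of each annotated start, using Python 3.11.15, pandas 2.3.3 and pysam 0.24.0. The window logic was tested on simulated data. A peak was called at 1 oxygen level if it shared no base with the other list. No test was run, since each mark and oxygen level has 1 list. Every gene of the list was counted by role. Described singly were genes with a differing peak, the gene with the most and the gene with the fewest H3K27ac bases in each role, and genes with no peak. Further examples were chosen with their values in view. The genes, the second list and the markers were chosen with earlier results of these data known. Alternatives covered the window, the score, the nearest gene, joined peaks and the definition of a start.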

Additional observations from a re-analysis of the deposited data

How the results depend on the processing

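Of 53 recomputed values, 42 stayed within the limits set (1.5 times for a count) and 11 moved. Counts of genes with H3K27ac in the window, with either mark at a start and with a differing H3K4me3 peak stayed within those limits under all alternatives run for them. The 2 genes with a hypoxia-only H3K27ac peak became 1 (Acvrl1) in the gene body alone, with 5000 bp on each side, without the lowest-scoring 25% of the hypoxia list, with the nearest start required to be the gene's own, with normoxia peaks kept over 1000 bp away and with peaks within 1000 bp joined. They became 4 (Acvrl1, Acvr1b, Eng and Ltbp4) with 50000 bp on each side, where the share of all genes was 7.59%, and 5 (Acvrl1, Ltbp1, Ltbp3, Ltbp4 and Nog) without the lowest-scoring 25% of each list, which removes normoxia peaks and so makes shared peaks look hypoxia-only. The 1 gene with a normoxia-only peak, Ltbp2, became 0 in the gene body alone and without the lowest-scoring 25% of each list or of the normoxia list. The 25% cut ranks scores over all chromosomes together, so it can remove more peaks from some chromosomes than from others. With the start itself inside the peak, H3K27ac in normoxia was at a start of 30 genes, as in hypoxia. The median score difference was 0, and -2 without peaks at 1000. The count of genes over 40 kb by nearest start was added after the data were seen. No paired analysis was possible because each list combines both libraries of its group, and for the same reason no library could be left out.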
